A study of Mus musculus with 6 samples.

Results

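Genes of the Wnt, Hedgehog and Notch pathways were followed in mouse embryonic fibroblasts (MEFs) with both copies of Nipbl or with 1 copy knocked out. Members were the genes on the minus strand whose symbol belongs to a Wnt, Hedgehog or Notch family, picked by a rule on names and strand, which gave 48 genes out of 38483 in the files. A further 54 genes with such names lie on the plus strand and were not usable, because every one of the 19214 genes of that strand was listed at 0 throughout. The members comprised 27 Wnt genes, 6 Hedgehog genes and 15 Notch genes. RNA depleted of rRNA was sequenced from 3 WT cultures and 3 Nipbl+/- cultures, the latter labelled NIPBL-haploinsufficient, all of CD1 strain and passage 3. The Nipbl+/- cells carry a heterozygous knockout of Nipbl, which encodes the loader of cohesin onto DNA, and the WT cells came from littermates. The methods describe embryos of mid-gestation from 1 pregnant mouse, minced after limbs, brain and internal organs were taken away. They do not say whether each culture was a single embryo. If all cultures came from that 1 litter, the spread between litters was not sampled. If the cultures shared an embryo, the p-values below would measure only the spread between cultures.

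These 3 pathways carry signals between neighbouring cells in the embryo. Wnt proteins bind a Frizzled receptor with the co-receptor Lrp5 or Lrp6 and stabilise beta-catenin, which then works with TCF/LEF factors in the nucleus. R-spondins, bound to Lgr receptors, keep Frizzled proteins on the cell surface and so strengthen a Wnt signal. Hedgehog proteins bind Ptch1 and release Smo, and Gli factors then switch on targets that include Ptch1, Gli1 and Hhip themselves. Notch is a receptor that is cut when a Jagged or Delta-like protein on the next cell binds it, and its free inner part acts in the nucleus with Rbpj and Maml proteins on targets of the Hes and Hey families. In mesenchyme, the tissue from which these fibroblasts come, all 3 pathways are known for patterning and growth.

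Total counts lay between 20307454 and 25990783 per culture. Nipbl itself had 128.4, 144.8 and 134.7 CPM in the WT cultures and 100.7, 101.3 and 100.3 CPM in the Nipbl+/- cultures, so every culture matched its label in direction. CPM here is the count scaled to library size, with TMM factors between cultures. Its log2 fold change was -0.43 (SE, the standard error, 0.057, adjusted p = 0.0213 in edgeR). Of the marker genes of fibroblasts, 14 of 16 lie on the plus strand. The 2 that could be read were abundant, Fbn1 and Prrx1, with a summed level of 2624 to 3829 CPM in WT and 2381 to 2683 CPM in Nipbl+/- cultures. All 9 macrophage markers of the minus strand had higher means in Nipbl+/- cultures, and their summed level was 57.6 to 75.3 CPM in WT against 91.05 to 180.9 CPM in Nipbl+/- cultures. None of those 9 passed the adjusted threshold in edgeR's quasi-likelihood test with every culture. In that test 8, or 88.9%, had an unadjusted p under 0.05, against 16.9% of all tested genes. Other tests, scalings and filters and a replicate block gave 9 further fits. C1qb was past the adjusted threshold in 6 of these, Ptprc, C1qa and C1qc in 4, Lyz2 in 3, and Cd68, Fcer1g, Cd14 and Aif1 in 0. Among these fits, edgeR's exact test and DESeq2 called 4.77% and 5.06% of all genes. Endothelial markers showed no such shift, at 69.3 to 103.7 CPM in WT and 70.95 to 93.3 CPM in Nipbl+/- cultures, with Pecam1 at 1 to 8 counts in each culture. The 4 epithelial markers of the minus strand were close to 0, but their summed level was higher in Nipbl+/- cultures without overlap. It was 0.742 to 1.78 CPM in WT and 2.29 to 3.01 CPM in Nipbl+/- cultures. The log2 fold change was 1.48 for Krt8 and 0.75 for Cldn4 (adjusted p = 0.227 and 0.564 in edgeR), while Krt5 and Krt14 had too few counts to test. Summed markers of skeletal muscle (7.835 to 9.84 CPM) and of nerve and Schwann cells (1.58 to 3.15 CPM) were low in all 6 cultures, and the single cartilage marker read ranged from 119.5 to 471.6 CPM within WT. Prrx1 had a log2 fold change of -0.30 with an adjusted p of 0.0661 in edgeR. The part of these markers in the differences described here was not tested. In bulk RNA, fewer cells of a type and less RNA per cell cannot be told apart.

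Of the 48 members, 39 had enough counts to be tested, and 1 of them, Hhip, was past the adjusted threshold, being lower in Nipbl+/- cultures. That is 2.56% of the tested members, where 1.95% of the 9061 tested genes were past it (0.916% lower and 1.04% higher). At an unadjusted p under 0.05, 6 members were lower and 1 was higher, together 17.9% of the members against 16.9% of all tested genes (7.95% lower and 8.98% higher), so the members' share was near the background. With scaling by library size alone the calls over all genes split into 142 higher and 70 lower, against 94 and 83 here. WT and Nipbl+/- cultures did not overlap for 7 members, again 17.9%, against 22.8% of all tested genes. Of these, Hhip, Rspo2, Wnt2, Lgr6 and Kremen1 were lower in Nipbl+/- cultures (10.8% of all genes), and Lrp5 and Wnt2b were higher (12.0% of all genes), Wnt2b by less than the digits printed below. The median log2 fold change was -0.11 over the tested members and -0.006 over all tested genes, and 61.5% of the members and 51.6% of all genes had a fold change below 0. By pathway, the median was -0.15 over 22 Wnt genes, 0.05 over 5 Hedgehog genes and -0.06 over 12 Notch genes. Apart from Hhip, the members with an unadjusted p under 0.05 were Wnt genes, 6 of the 22 tested, or 27.3%. The Notch genes had 0 members past either threshold in edgeR's quasi-likelihood test, and 0 past the adjusted one in DESeq2 and in edgeR's exact test.

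**Figure D1:**
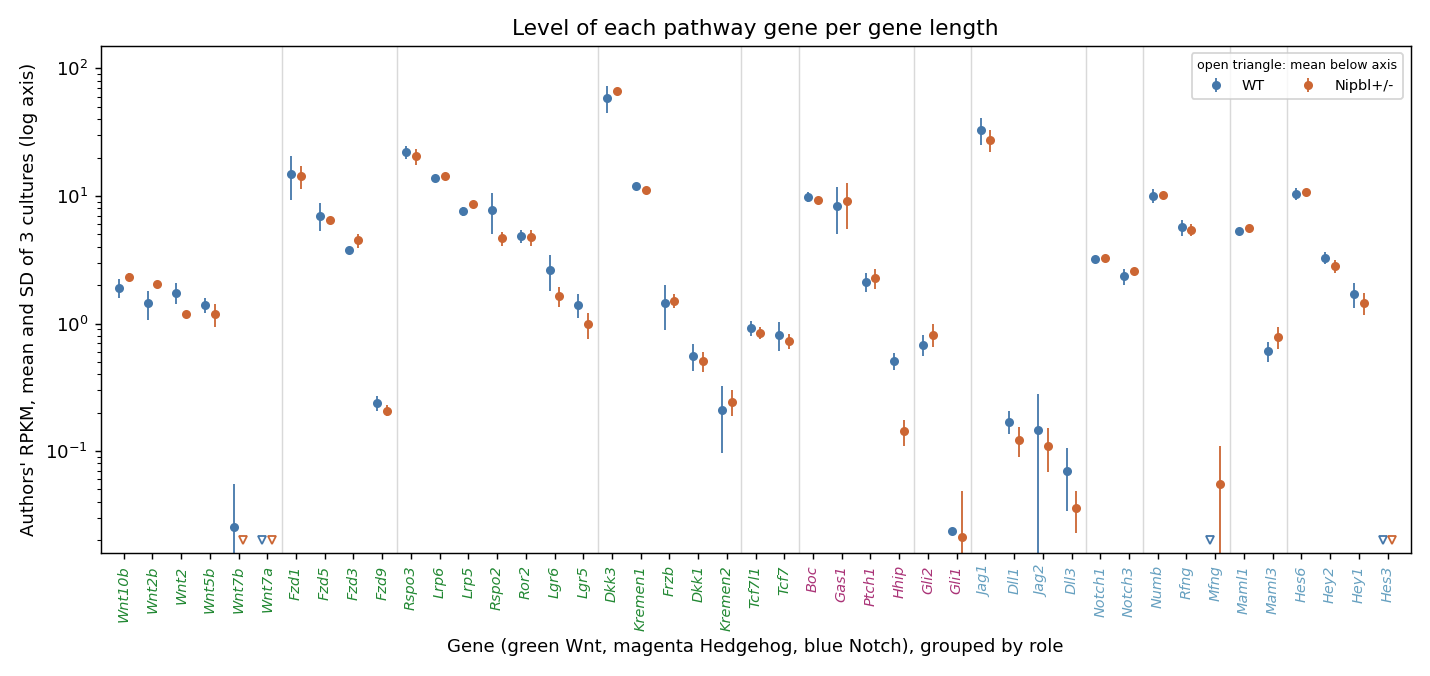
Level of 45 members as the authors' RPKM on a log axis, as mean and SD of 3 WT (blue) and 3 Nipbl+/- (orange) cultures, grouped by role, with an open triangle where a mean fell below the axis. Dkk3, Jag1 and Rspo3 were the most abundant, most pairs of points lay side by side, and Hhip showed the widest gap between genotypes among the tested members.

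**Figure D2:**
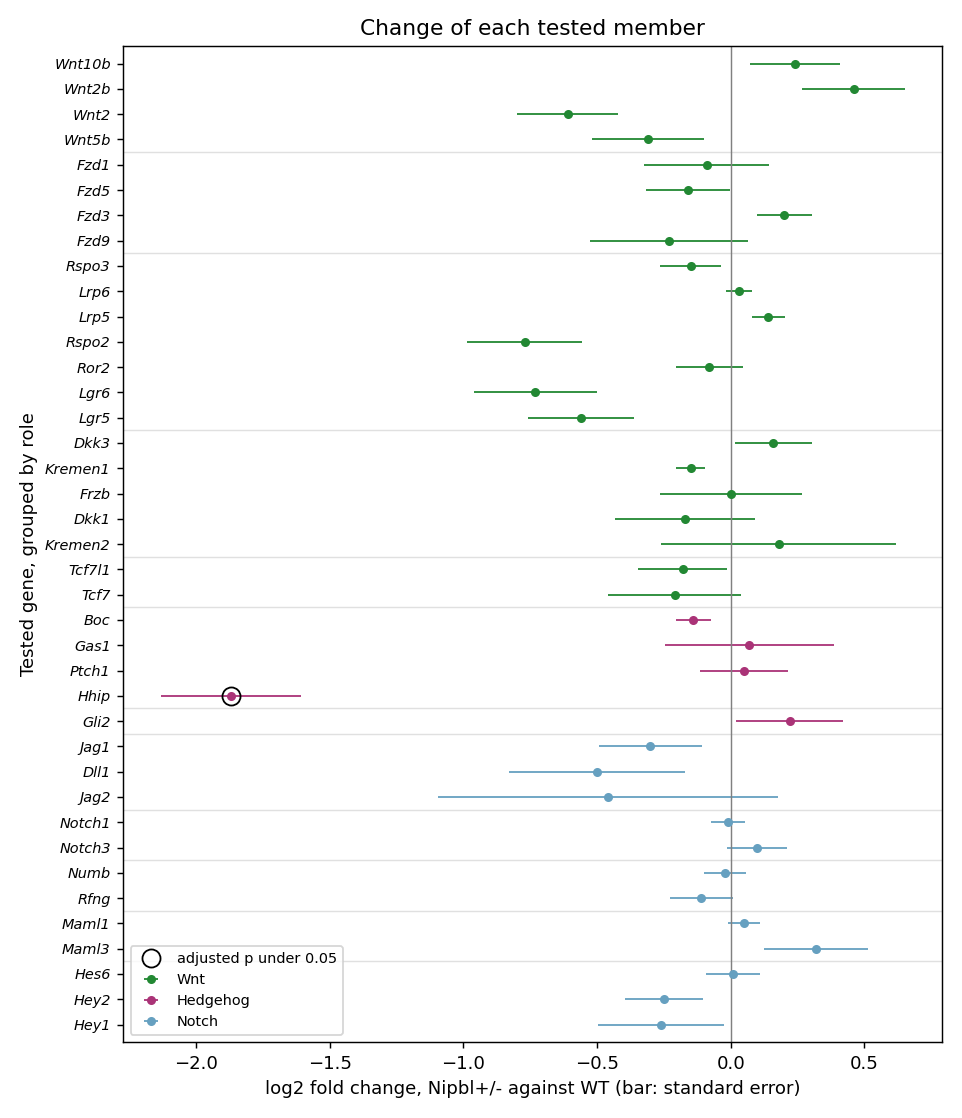
Log2 fold change of Nipbl+/- against WT for the 39 tested members, with the standard error as a bar and genes grouped by role. Hhip, circled, lay at -1.87 and was the only member with an adjusted p under 0.05, while the other members lay between -0.77 and 0.46.

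Hhip was the member that fell. It encodes a protein of the cell surface that binds Hedgehog ligands and keeps them from Ptch1, and it is itself switched on by Hedgehog signalling. Its gene, ENSMUSG00000064325, lies on the minus strand of chromosome 8 in mm10, from 79966115 to 80058006. It was a gene of low level, with 59, 68 and 46 counts in the WT cultures and 20, 15 and 14 counts in the Nipbl+/- cultures. In CPM these were 2.68, 3.03 and 2.13 in WT against 0.902, 0.573 and 0.668 in Nipbl+/- cultures. The highest Nipbl+/- culture was below the lowest WT culture by more than the spread within either genotype. The means were 2.61 ± 0.450 CPM in WT and 0.715 ± 0.169 CPM in Nipbl+/- cultures (SD, n = 3 each), a 3.66-fold decrease with a log2 fold change of -1.87 (SE 0.262, adjusted p = 0.0224 in edgeR). The exact permutation test, two-sided, gave p = 0.1, the smallest that 3 against 3 cultures allow. The call depended on single cultures. The edgeR adjusted p was 0.103 without WT replicate 1. It was 0.0742, 0.0775 and 0.056 without Nipbl+/- replicates 1, 2 and 3. Over all genes, these omissions left 6, 3, 11 and 67 genes past the threshold, in that order, against 177 with every culture. The log2 fold change of Hhip stayed between -2.07 and -1.72 in all 6 fits with 1 culture omitted.

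The start of Hhip is shown because it is the promoter of the single member that passed the threshold. The 250 bases before the RefSeq start site lie at chr8:80058009-80058258 on the minus strand of GRCm38.p6, the assembly of mm10, and capitals mark each CpG.
Hhip promoter: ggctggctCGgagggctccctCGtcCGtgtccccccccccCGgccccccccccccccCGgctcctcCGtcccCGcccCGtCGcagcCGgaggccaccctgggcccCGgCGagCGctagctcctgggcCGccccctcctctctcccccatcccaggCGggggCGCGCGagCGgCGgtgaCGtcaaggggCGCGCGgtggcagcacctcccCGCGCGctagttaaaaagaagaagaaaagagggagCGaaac
This stretch held 28 CpG and was 76.0% G or C. With 50 more bases after the start site, its GC content was above that of 94.9% of all 32851 mouse promoters of that length in the RefSeq table. Short cores of factors that end these pathways were searched on both strands of the 300 bases of every promoter. The GLI core TGGGTGG, the TCF/LEF core CTTTGAT and the RBPJ core TGGGAA were not found in the Hhip promoter, and they occurred in 9.30%, 3.73% and 25.6% of all promoters. The RefSeq promoters used here covered 34 of the 48 members, 41 promoters in all. The other members, among them Rspo2, Lgr5 and Kremen1, were not searched. The GLI core was found in promoters of Numb and Ror2, and the TCF/LEF core in promoters of Maml1 and Wnt5b. The RBPJ core was found in promoters of Frzb, Hey2, Lgr6, Maml3, Tcf7l1 and Wnt5b. A match, or its absence in this window, is a description of letters and not of binding.

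None of the other 4 tested Hedgehog genes passed either threshold in edgeR. Ptch1, the receptor and also a target of the pathway, had 9.94, 7.97 and 10.95 CPM in WT and 8.57, 11.9 and 9.36 CPM in Nipbl+/- cultures. The ranges overlapped, with Nipbl+/- replicate 2 highest and WT replicate 2 lowest of all 6 cultures. The log2 fold change was 0.05 (SE 0.166, adjusted p = 0.909 in edgeR), and its sign turned as cultures were omitted in turn, from -0.10 to 0.16. Within each culture, the ratio of Hhip to Ptch1 counts was 0.269, 0.380 and 0.195 in WT and 0.105, 0.0481 and 0.0714 in Nipbl+/- cultures. This ratio does not depend on the scaling between cultures, and it was chosen after the values of both genes were seen. Gli1, the target most often read as a sign of Hedgehog signalling, had 2 counts in each WT culture and 1, 0 and 4 counts in Nipbl+/- cultures, too few to test, so a difference in Gli1 was not detectable at this depth. Of the Hedgehog ligands, Shh had 0 counts in 5 cultures and 2 in the other, a count of 0 allowing up to 3 counts per library. Ihh had at most 7 counts, and Dhh had 5 to 14 counts with a log2 fold change of 0.46 (SE 0.461, adjusted p = 0.665 in edgeR).

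Boc and Gas1 encode co-receptors that help Ptch1 bind Hedgehog proteins. Boc had 47.6, 42.41 and 48.8 CPM in WT and 41.4, 42.42 and 42.2 CPM in Nipbl+/- cultures, with 1 WT culture at the level of the Nipbl+/- cultures. Its log2 fold change was -0.14 (SE 0.065, adjusted p = 0.325 in edgeR). Gas1 ranged from 16.2 to 36.2 CPM in WT and from 19.4 to 39.1 CPM in Nipbl+/- cultures, a more than 2-fold range inside each genotype. In the GENCODE M21 annotation, 19.9% of the exonic bases of Gas1 are shared with a gene of the plus strand, and whether the counting used strand is not stated. Gli2, a factor that carries the signal to the nucleus, had 3.95, 5.65 and 5.15 CPM in WT and 4.42, 6.38 and 6.35 CPM in Nipbl+/- cultures (log2 fold change 0.22, SE 0.199, adjusted p = 0.631 in edgeR). Per gene length, Boc, at 9.89 ± 0.885 RPKM in WT, and Gas1, at 8.41 ± 3.42 RPKM, could not be ordered. Ptch1 followed at 2.13 ± 0.375 RPKM, and Gli2 and Hhip were lower at 0.682 ± 0.126 and 0.507 ± 0.0775 RPKM (SD, n = 3 each). Smo, Sufu, Gli3 and Cdon lie on the plus strand.

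The tested genes nearest to Hhip on the same strand were taken in equal number on each side, 6 in all. None of them passed the adjusted threshold in edgeR, and 5 of them had log2 fold changes of 0.00 to 0.14. Gm5909, 52.8 kb above Hhip in coordinate, had 0.02, and Abce1, 254.4 kb below it in coordinate, had 0.00. Smarca5 and Gab1, 640.5 and 706.4 kb above it, had 0.14 and 0.13. Smad1, 566.6 kb below it, had 0.11, and the pseudogene Tpd52-ps had -0.59 with an edgeR adjusted p of 0.518. Genes of the plus strand in this interval could not be read.

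**Figure D3:**
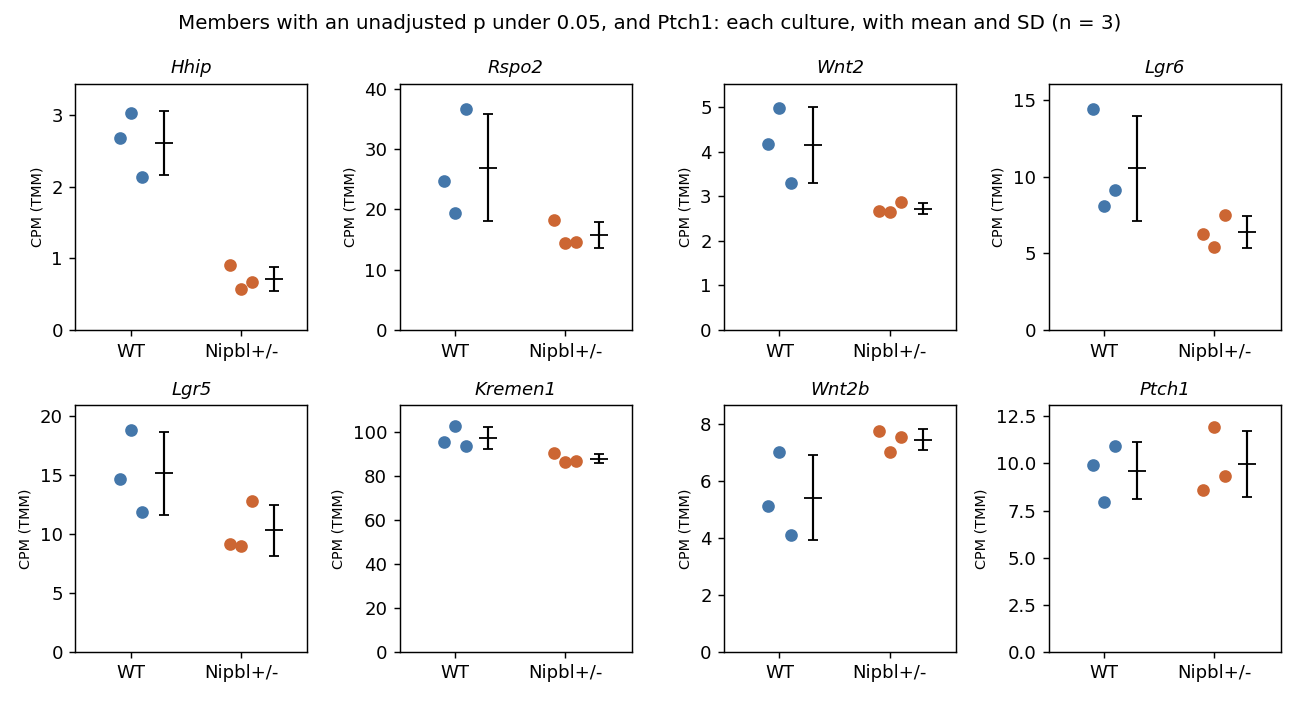
TMM-scaled CPM of each culture for the 7 members with an unadjusted p under 0.05 and for Ptch1, with the mean and SD beside the points (n = 3 per genotype) and each axis starting at 0. Hhip, Rspo2, Wnt2, Lgr6 and Kremen1 were separate between genotypes, Wnt2b was separate by less than the width of a point, and Lgr5 and Ptch1 overlapped.

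Among the Wnt genes, the R-spondin Rspo2 and the R-spondin receptors Lgr6 and Lgr5 had the lowest values relative to WT together with the ligand Wnt2, although none of them passed the adjusted threshold in edgeR's quasi-likelihood test. Rspo2, on chromosome 15 from 43020811 to 43170818, had 24.6, 19.45 and 36.7 CPM in WT and 18.2, 14.4 and 14.7 CPM in Nipbl+/- cultures. No Nipbl+/- culture reached the lowest WT culture, and WT replicate 3 stood well above the rest. The log2 fold change was -0.77 (SE 0.216, adjusted p = 0.113 in edgeR). It was past the threshold in edgeR's exact test (adjusted p = 0.0203) and in DESeq2 (adjusted p = 0.00311), which called 4.77% and 5.06% of all genes. Without WT replicate 2, the lowest WT culture, the edgeR adjusted p was 0.0359, in a fit that called 268 genes against 177 with every culture. Omitting any other culture gave edgeR adjusted p-values of 0.145 to 0.299, and without WT replicate 3 the log2 fold change was -0.49.

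Lgr6, on chromosome 1 from 134986348 to 135105276, had 14.4, 8.06 and 9.14 CPM in WT and 6.27, 5.39 and 7.50 CPM in Nipbl+/- cultures. The genotypes did not overlap, and WT replicate 1 was far above the other WT cultures. Its log2 fold change was -0.73 (SE 0.231, adjusted p = 0.159 in edgeR), with an adjusted p of 0.0361 in DESeq2. Without WT replicate 1 the log2 fold change was -0.43 with an adjusted p of 0.374 in edgeR. Lgr5, a receptor that is also a known Wnt target, had 14.7, 18.8 and 11.8 CPM in WT and 9.11, 8.94 and 12.75 CPM in Nipbl+/- cultures, so Nipbl+/- replicate 3 reached above the lowest WT culture. Its log2 fold change was -0.56 (SE 0.197, adjusted p = 0.200 in edgeR), and -0.37 without WT replicate 2. The third receptor, Lgr4, lies on the plus strand.

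Rspo3, the other R-spondin read, had overlapping genotypes. It had 56.5, 49.9 and 60.1 CPM in WT and 56.4, 51.9 and 41.7 CPM in Nipbl+/- cultures, with a log2 fold change of -0.15 (SE 0.113, adjusted p = 0.561 in edgeR), and 13.1% of its exonic bases are shared with a gene of the plus strand. In RPKM, Rspo3 stood at 22.1 ± 2.49 in WT and 20.45 ± 2.82 in Nipbl+/- cultures, and Rspo2 at 7.75 ± 2.74 and 4.64 ± 0.590 (SD, n = 3 each). Lgr6 followed at 2.63 ± 0.818 and 1.65 ± 0.295 RPKM and Lgr5 at 1.40 ± 0.301 and 0.983 ± 0.221 RPKM. Lrp5 and Lrp6 are the co-receptors of Frizzled. Lrp6 ranged from 140.3 to 148.5 CPM over all 6 cultures (log2 fold change 0.03, SE 0.0482). Lrp5 ranged from 72.2 to 81.4 CPM in WT and from 83.3 to 90.4 CPM in Nipbl+/- cultures without overlap, but its log2 fold change was 0.14 (SE 0.062, adjusted p = 0.302 in edgeR). Ror2, a receptor for Wnt5a, had a log2 fold change of -0.08.

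Of the 8 Wnt ligands on the minus strand, 4 were tested. Wnt2, on chromosome 6 from 17988940 to 18030585, had 4.17, 4.99 and 3.29 CPM in WT and 2.66, 2.64 and 2.87 CPM in Nipbl+/- cultures. All Nipbl+/- cultures were lower, and the log2 fold change was -0.61 (SE 0.190, adjusted p = 0.152 in edgeR). Wnt2b, another ligand, on chromosome 3 from 104944805 to 104961709, had 5.13, 7.03 and 4.08 CPM in WT and 7.76, 7.03 and 7.54 CPM in Nipbl+/- cultures. WT replicate 2 and Nipbl+/- replicate 2 were equal to the digits given, and the log2 fold change was 0.46 (SE 0.193, adjusted p = 0.283 in edgeR), or 0.29 without WT replicate 3 and 0.69 without WT replicate 2. Within each culture, Wnt2b counts were 1.23, 1.41 and 1.24 times those of Wnt2 in WT and 2.92, 2.67 and 2.63 times in Nipbl+/- cultures, a pair chosen after its values were seen. This ratio does not change with the scaling between cultures, and it had an SD of 0.102 in WT and 0.154 in Nipbl+/- cultures.

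Wnt10b had 5.67, 4.41 and 3.94 CPM in WT and 5.998, 5.27 and 5.35 CPM in Nipbl+/- cultures (log2 fold change 0.24, SE 0.168, adjusted p = 0.512 in edgeR). Wnt5b ranged from 3.25 to 4.41 CPM in WT and from 2.45 to 3.74 CPM in Nipbl+/- cultures, with a log2 fold change of -0.31. In RPKM, WT cultures had 1.90 ± 0.330 of Wnt10b, 1.75 ± 0.325 of Wnt2, 1.44 ± 0.375 of Wnt2b and 1.41 ± 0.187 of Wnt5b, neighbours that did not differ beyond their spread. In Nipbl+/- cultures the order was Wnt10b at 2.33 ± 0.149, Wnt2b at 2.04 ± 0.107, and then Wnt2 at 1.18 ± 0.0716 and Wnt5b at 1.18 ± 0.248 (SD, n = 3 each), with a gap wider than the SDs between Wnt2b and Wnt2. Wnt7a had 0 or 1 count per culture and Wnt7b 0 to 6 counts, while Wnt3a and Wnt9b had 0 counts in every culture, which allows up to 3 counts per library.

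None of the 4 Frizzled receptors passed either threshold in edgeR. Fzd1, the most abundant of those read, had 60.2, 48.9 and 94.6 CPM in WT and 79.1, 56.3 and 55.8 CPM in Nipbl+/- cultures, so that WT replicates held both the highest and the lowest value (log2 fold change -0.09, SE 0.233, adjusted p = 0.887 in edgeR). Fzd9, scarcely expressed, had 0.544, 0.534 and 0.650 CPM in WT and 0.496, 0.535 and 0.430 CPM in Nipbl+/- cultures (log2 fold change -0.23, SE 0.297, adjusted p = 0.772 in edgeR). Fzd3 and Fzd5 had log2 fold changes of 0.20 and -0.16. Fzd5 ranged from 36.8 to 58.8 CPM in WT, where replicate 2 was lowest, and from 43.8 to 46.5 CPM in Nipbl+/- cultures, and 17.8% of its exonic bases are shared with a gene of the plus strand. With all cultures, the edgeR adjusted p of Fzd5 was 0.649. Without WT replicate 2, Fzd5 passed the threshold with a log2 fold change of -0.35 and an edgeR adjusted p of 0.0252. That fit called 268 genes in all, against 177 with every culture. In RPKM over all cultures, Fzd1 averaged 14.6, Fzd5 6.73, Fzd3 4.13 and Fzd9 0.224.

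Secreted antagonists were led by Dkk3, a Dickkopf family member whose effect on Wnt signals is less clear than that of Dkk1. Dkk3 had 218.2, 154.4 and 242.6 CPM in WT and 236.3, 231.4 and 218.0 CPM in Nipbl+/- cultures, with WT replicate 2 below the rest (log2 fold change 0.16, SE 0.142, adjusted p = 0.631 in edgeR). Its level of 58.3 ± 13.9 RPKM in WT and 66.7 ± 1.83 RPKM in Nipbl+/- cultures was the highest of the members. Dkk1, which blocks Lrp5 and Lrp6, was low at 0.556 ± 0.135 and 0.506 ± 0.0900 RPKM (SD, n = 3 each). Kremen1, a receptor that removes Lrp6 together with Dkk1, had 95.3, 102.9 and 93.5 CPM in WT and 90.3, 86.45 and 86.8 CPM in Nipbl+/- cultures. All Nipbl+/- cultures were lower, by a small step (log2 fold change -0.15, SE 0.0543, adjusted p = 0.225 in edgeR). Kremen2 had 0.771, 0.312 and 0.325 CPM in WT and 0.631, 0.573 and 0.382 CPM in Nipbl+/- cultures (log2 fold change 0.18, SE 0.439). Frzb, a secreted Wnt-binding protein, ranged from 3.34 to 7.17 CPM in WT and from 4.32 to 5.395 CPM in Nipbl+/- cultures, and Sfrp5 had 0 counts in every culture.

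Tcf7 and Tcf7l1, nuclear partners of beta-catenin, were low in both genotypes. Tcf7 had 2.405, 2.80 and 1.58 CPM in WT and 1.76, 1.91 and 2.20 CPM in Nipbl+/- cultures (log2 fold change -0.21, SE 0.250, adjusted p = 0.717 in edgeR). Tcf7l1 had 3.45, 3.74 and 4.27 CPM in WT and 3.70, 2.98 and 3.44 CPM in Nipbl+/- cultures (log2 fold change -0.18, SE 0.166, adjusted p = 0.632 in edgeR). All 7 matched genes of the cytoplasmic steps (Axin1, Axin2, Apc, Ctnnb1, Dvl1, Dvl2 and Dvl3), together with Lef1 and Tcf7l2, lie on the plus strand, and Axin2 and Lef1 are among the usual readouts of Wnt signalling.

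For Notch genes the 2 genotypes overlapped in all 12 tested members, where 22.8% of all tested genes did not overlap. Jag1, a ligand and the most abundant Notch gene read, had 202.3, 253.8 and 151.6 CPM in WT and 156.3, 200.8 and 136.2 CPM in Nipbl+/- cultures. The genotypes overlapped, and the log2 fold change was -0.30 (SE 0.192, adjusted p = 0.477 in edgeR). Its level was 33.0 ± 7.76 RPKM in WT and 27.6 ± 5.35 RPKM in Nipbl+/- cultures (SD, n = 3 each). The other ligands were close to the limit of detection. Dll1 had 14, 21 and 15 counts in WT and 15, 14 and 8 counts in Nipbl+/- cultures (log2 fold change -0.50, SE 0.329, adjusted p = 0.492 in edgeR), with 20.5% of its exonic bases shared with a gene of the plus strand. Jag2 had 5 to 29 counts, its highest in WT replicate 2, and Dll3 had 2 to 7 counts and was not tested.

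The receptors Notch1 and Notch3 overlapped between genotypes. Notch1 had 50.5, 45.6 and 48.0 CPM in WT and 48.9, 49.3 and 45.1 CPM in Nipbl+/- cultures (log2 fold change -0.01, or 0.03 with library size alone, SE 0.062, adjusted p = 0.968 in edgeR). Notch3 had 21.9, 16.65 and 20.7 CPM in WT and 21.6, 22.3 and 19.5 CPM in Nipbl+/- cultures (log2 fold change 0.10, SE 0.112, adjusted p = 0.705 in edgeR). Per gene length, Notch1 was at 3.21 ± 0.173 RPKM and Notch3 at 2.34 ± 0.340 RPKM in WT (SD, n = 3 each).

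Of the genes that modify Notch, Numb encodes an inhibitor of the receptor and had 39.52, 36.3 and 44.6 CPM in WT and 40.0, 39.52 and 39.1 CPM in Nipbl+/- cultures (log2 fold change -0.02, or 0.015 with library size alone, SE 0.0784). Rfng, which adds sugars to the receptor, had 14.3, 13.4 and 16.7 CPM in WT and 14.5, 12.2 and 14.7 CPM in Nipbl+/- cultures (log2 fold change -0.11, SE 0.118). Mfng, another fringe enzyme, had 0 counts in each WT culture and 1, 9 and 2 counts in Nipbl+/- replicates 1, 2 and 3, too few to test. Nipbl+/- replicate 2, with the most Mfng counts, also had the highest summed level of macrophage markers, and their part in the Mfng counts was not tested.

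In the nucleus, Maml1, a co-activator of Notch, had 29.9, 32.0 and 30.5 CPM in WT and 31.7, 31.99 and 31.9 CPM in Nipbl+/- cultures (log2 fold change 0.05, SE 0.0593). Maml3 had 3.40, 4.495 and 4.64 CPM in WT and 4.10, 5.885 and 5.63 CPM in Nipbl+/- cultures (log2 fold change 0.32, SE 0.194, adjusted p = 0.451 in edgeR). In the Hes and Hey families, Hes6, an unusual Hes protein that opposes Hes1, had 22.1, 17.5 and 19.9 CPM in WT and 20.9, 20.4 and 18.5 CPM in Nipbl+/- cultures (log2 fold change 0.01, or -0.0042 with upper-quartile scaling, SE 0.101). Hey1 had 4.40, 4.58 and 2.83 CPM in WT and 3.34, 3.90 and 2.58 CPM in Nipbl+/- cultures (log2 fold change -0.26, SE 0.235, adjusted p = 0.625 in edgeR). Hey2 ranged from 7.80 to 10.0 CPM in WT and from 6.73 to 8.45 CPM in Nipbl+/- cultures (log2 fold change -0.25). Hes3 had 0 or 1 count per culture, and Hes1, Hes5 and Heyl lie on the plus strand.

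**Figure D4:**
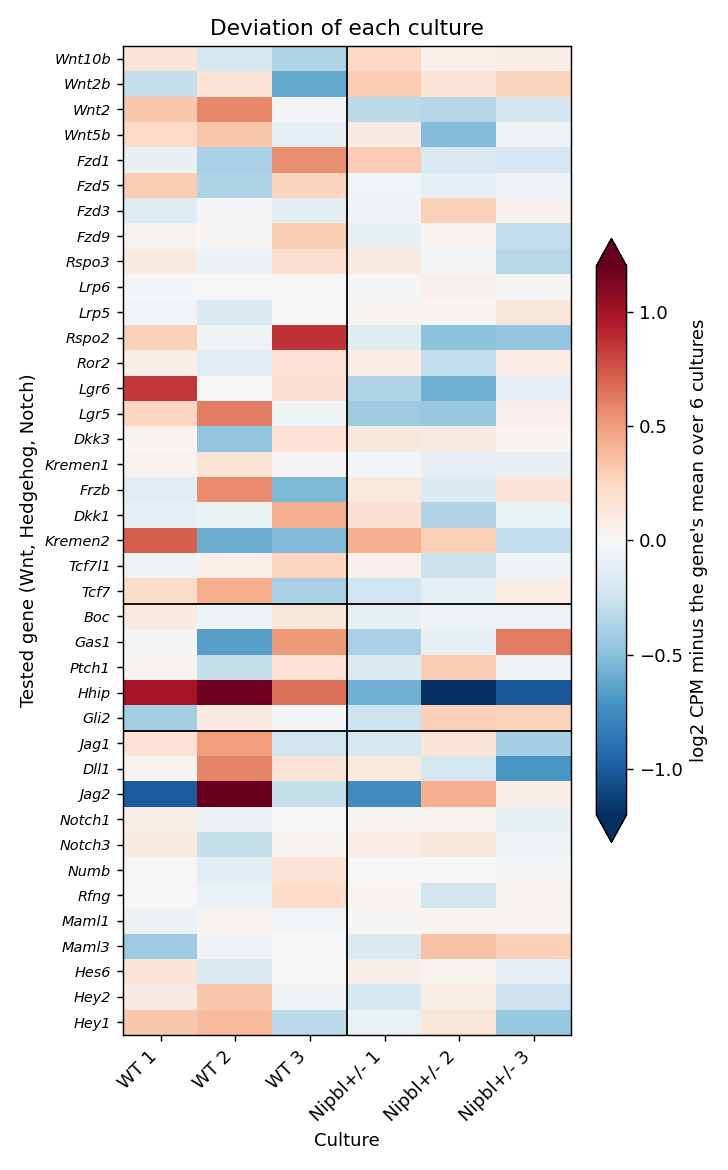
Deviation of each culture from the gene's mean log2 CPM over the 6 cultures for the 39 tested members, with red above and blue below the mean and the strongest colours also covering values beyond the scale. The Hhip row changed colour between genotypes, while WT 2 and WT 3 differed from each other in Fzd1, Dkk3, Frzb, Gas1 and Jag1.

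Single cultures were at the edge of the range for different shares of these genes. WT replicate 2 held the highest value of 12 members and the lowest value of 10, so that it was at an edge for 56.4% of the tested members, against 35.8% of all tested genes. It was highest for Jag1, Frzb, Lgr5 and Wnt2 and lowest for Fzd1, Fzd5, Dkk3 and Gas1. Nipbl+/- replicate 2 was at an edge for 46.2% of the members and 32.3% of all genes, and WT replicate 3 for 38.5% and 36.3%. The shares were below those over all genes for WT replicate 1 (25.6% and 33.6%), Nipbl+/- replicate 1 (10.3% and 27.3%) and Nipbl+/- replicate 3 (23.1% and 34.7%). These shares are a description of the 6 cultures.

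Further genes of the same pathways, from lists written by hand, gave 83 genes of the minus strand, of which 76 were tested. Of these, 1 was higher and 1 was lower at the adjusted threshold, 2.63% in all against 1.95% of all tested genes, with a median log2 fold change of 0.02. Both were Wnt genes. Ptk7, a co-receptor that takes part in Wnt signalling and cell polarity, had 725.1, 692.8 and 661.7 CPM in WT and 569.1, 579.8 and 578.7 CPM in Nipbl+/- cultures, a log2 fold change of -0.27 (SE 0.0472, adjusted p = 0.0344 in edgeR). Amer1, which binds Apc at the cell membrane, had 20.92, 20.96 and 21.4 CPM in WT and 26.7, 25.8 and 27.55 CPM in Nipbl+/- cultures, a log2 fold change of 0.34 (SE 0.0648, adjusted p = 0.0434 in edgeR). Both genes separated the genotypes by small steps, and when each of the 6 cultures was omitted in turn, Ptk7 was past the threshold in 2 fits (adjusted p up to 0.120 in edgeR) and Amer1 in 0 (adjusted p 0.0686 to 0.159 in edgeR).

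Of the 29 tested Wnt genes on the list, 8, or 27.6%, had an unadjusted p under 0.05 in edgeR, against 16.9% of all tested genes. They were 4 higher and 4 lower, and apart from Ptk7 and Amer1 they did not pass the adjusted threshold in edgeR's quasi-likelihood test. Nkd2, an inhibitor that binds Dvl, had 11.8, 16.8 and 11.3 CPM in WT and 9.83, 8.06 and 5.68 CPM in Nipbl+/- cultures (log2 fold change -0.76, SE 0.2205, adjusted p = 0.129 in edgeR). Nkd2 was past the threshold in edgeR's exact and likelihood ratio tests and in DESeq2. The exact test and DESeq2 called 4.77% and 5.06% of all genes. Vangl2, a core gene of planar cell polarity, had 9.85, 9.925 and 9.001 CPM in WT and 11.5, 12.4 and 13.9 CPM in Nipbl+/- cultures (log2 fold change 0.39, SE 0.110, adjusted p = 0.115 in edgeR). Of the 21 tested Hedgehog genes on the list, 0 passed the adjusted threshold in edgeR and 4, or 19.0%, had an unadjusted p under 0.05, near the 16.9% of all tested genes. One was Hhat, which attaches palmitate to Hedgehog proteins, with a log2 fold change of -0.28 (SE 0.0795, adjusted p = 0.120 in edgeR). Of the 26 tested Notch genes on the list, 0 passed the adjusted threshold in edgeR and 4, or 15.4%, had an unadjusted p under 0.05, also near 16.9%. Among them was Eogt, a sugar transferase that acts on Notch, with a log2 fold change of 0.23 (SE 0.0618, adjusted p = 0.107 in edgeR).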

How the data were processed

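RNA-seq counts of 3 WT and 3 Nipbl+/- MEF cultures were used. TopHat2 2.0.10 was used by the authors for alignment to mm10 (annotation Ensembl 72), and they deposited a raw read count and an RPKM for each gene. The counting tool and its use of strand are not given in the sources used here. RPKM values deposited by the authors were used only to compare levels between genes, and they followed the counts within 0.0164% in all 6493 genes with at least 100 counts. Counts were filtered with filterByExpr (minimum count 10), scaled by TMM and tested across all 9061 genes kept by quasi-likelihood in edgeR 4.0.16 (R 4.3.3), with Benjamini-Hochberg adjustment over those genes and a threshold of 0.05. The standard error (SE) of a log2 fold change was its size over the square root of the F statistic. The lowest total was 20307454 counts, and intervals from counts of 0 cover counting error only. Replicates of a genotype differed by more than sampling noise (chi-square per degree of freedom 10.1 to 34.6). Deviations of same-numbered cultures had correlations from -0.142 to -0.0364, so the numbers were not taken as pairs. Steps were tested on simulated data. DESeq2 1.42.0, the likelihood ratio and exact tests of edgeR, other scalings and filters, a replicate block and the omission of each culture were tried as alternatives. The rule for members used names and strand and no measured value, but these pathways, the roles and the lists were chosen with earlier results of these data known. Members are named with values in every culture if past either threshold, or if highest in RPKM or largest in change within their role. Genes of the hand-written lists, apart from the Hedgehog ligands, are named if past the adjusted threshold or with an unadjusted p under 0.01 in edgeR. Promoters are those of RefSeq, and shared exons those of GENCODE M21.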

Additional observations from a re-analysis of the deposited data

How the results depend on the processing

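The number of members past the adjusted threshold was 1 and became 2 with edgeR's exact test, 2 with the likelihood ratio test and 2 with no filter on low counts (Hhip and Rspo2 in each), and 3 with DESeq2 (Hhip, Rspo2 and Lgr6). For Wnt members the numbers were 1, 1, 1 and 2. Of the other pathway genes, 2 passed in the main fit (Ptk7 and Amer1). With the exact test, the likelihood ratio test and DESeq2, 3 passed in each (Ptk7, Amer1 and Nkd2). In the fit with a replicate block, 0 members, 0 Hedgehog members and 0 other pathway genes passed, and 86 genes in all instead of 177. The block left the log2 fold change of Hhip at -1.87 with an edgeR adjusted p of 0.0513. Same-numbered cultures had a mean correlation of -0.0802 in their deviations. Over all genes the exact test called 432, the likelihood ratio test 442, DESeq2 444 and no filter 325. With each culture left out in turn, 0 to 3 members, 0 to 2 Wnt members, 0 to 1 Hedgehog members, 0 to 4 other pathway genes and 3 to 268 genes in all passed, with the lowest total without Nipbl+/- replicate 1 and the highest without WT replicate 2. The log2 fold change of Nipbl was -0.47 to -0.39 in those fits, and its adjusted p was under the threshold in 3 of 6. The median log2 fold change of the members was -0.138 with DESeq2 and with no filter, -0.070 with library size alone, and -0.147 to -0.022 with a culture left out. Those of the pathways without a culture were -0.177 to -0.071 for Wnt, -0.182 to 0.156 for Hedgehog and -0.090 to -0.011 for Notch. The signs of small changes turned in 14 of 400 repeats over the 27 members that the naming rule took. With upper-quartile scaling Hes6 was at -0.0042, and with library size alone Notch1 was at 0.03 and Numb at 0.015. With a culture left out, the log2 fold change ranged from -0.012 to 0.29 for Dkk3, -0.28 to 0.23 for Fzd1, -0.075 to 0.087 for Hes6, -0.047 to 0.73 for Kremen2, -0.044 to 0.031 for Notch1, -0.0099 to 0.18 for Notch3 and -0.089 to 0.06 for Numb. At this depth 9 members could not be tested, 3 of them at 0 counts throughout (Wnt3a, Wnt9b and Sfrp5) and 6 at low counts (Gli1, Mfng, Dll3, Hes3, Wnt7a and Wnt7b). The causes of these shifts were not tested.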
